A study of Mus musculus with 18 samples.

Results

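The cytosolic ribosomal protein genes were described in pancreas and liver of mice that lack, or carry a single copy of, Otub2, a gene for a deubiquitinating enzyme of the OTU family. The genes were chosen by symbol, as rows named Rpl or Rps followed by a number and at most 1 of the letters a, x, l or y, together with Rplp0, Rplp1, Rplp2 and Rpsa. This gave 83 of the 55291 genes listed for each tissue, 51 of the large subunit and 32 of the small subunit. All 83 matched a gene of GENCODE mouse release 21. Rpl32l, Rpl6l and Rps4l carry the symbol of a ribosomal protein gene but are annotated there as processed pseudogenes, and they were kept because the symbol rule takes them.

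There were 11 libraries of pancreas, 3 labelled HOM (genotype OTUB2 -/-; HOM 10, 19 and 21, all male), 5 labelled HET (OTUB2 +/-; females 9 and 11, males 10, 15 and 16) and 3 labelled WT (OTUB2 +/+; female 16, males 11 and 12), and 7 of liver, 5 labelled HET (1 to 5) and 2 labelled WT (1 and 2), with no sex given. Numbers are the submitters' replicate numbers. The animals were kept under normal conditions. The sources used here give neither strain nor age, nor the way in which Otub2 was disrupted. The libraries followed a bulk form of MARS-seq, a 3′-end method, and levels are given as CPM, counts scaled to the library's total with no division by transcript length.

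The ribosome of the cytosol consists of a large and a small subunit, each an RNA scaffold dressed with proteins, nearly all present once per ribosome, the stalk proteins Rplp1 and Rplp2 being exceptions. The small subunit reads the mRNA, and the large subunit joins the amino acids and releases the chain through an exit tunnel. Genes for ribosomal proteins are among the most strongly transcribed in most cells, and in exocrine pancreas and liver they serve the production of digestive enzymes and plasma proteins. Their mRNAs start with a pyrimidine tract through which the kinase mTORC1 and the RNA-binding protein LARP1 control their translation. Reverse transcription of these mRNAs has left many intronless copies (processed pseudogenes) in mammalian genomes.

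The libraries differed in depth and in kind. Pancreas libraries held 49502 to 205103 counts, except HET 16 with 670588 and HET 11 with 1326541, and liver libraries held 155201 to 1686234. Otub2 had 1, 0 and 0 counts in the HOM pancreata, 1 in HET 16 and 0 in the other 4 HET pancreata, and 3, 4 and 3 in the WT pancreata. In liver it had 1, 0, 1, 1 and 2 counts in the HET libraries and 1 and 0 in the WT libraries, too few to check the labels there. HOM and HET pancreata were not told apart by these counts, and since the deleted stretch is not stated, counts at the 3′ end may lie outside it. HET 11 and HET 16 stood apart from the other 9 pancreata. Protein-coding genes took 95.0% and 91.7% of their counts, against 60.1% to 69.0% in the other 9, and olfactory and vomeronasal receptor genes took 0.0151% and 0.0252%, against 0.242% to 0.728%. Summed stomach mucosa markers, a list of which 11 genes were in the table, stood at 228561 CPM in HET 11 and 192677 CPM in HET 16, against 18.4 to 25615 CPM in the other 9. That list was drawn up after an earlier report of these data saw its genes lead 2 libraries. Its level is therefore no separate support that HET 11 and HET 16 stood apart. The 13 acinar genes summed to 165021 and 62821 CPM in HET 11 and HET 16, against 105 to 15988 CPM in the other 9, and the duct markers to 6399 and 5644 CPM, against 12.3 to 3879 CPM. Of the 13 acinar genes, 6 (Cela2a, Cela3b, Ctrb1, Prss2, Cel and Amy2a5) had 0 counts in all 11 pancreata, as did the islet hormone gene Gcg. Only 4 of the 13 had counts in HET 11 and 4 in HET 16, against 2 to 4 in each of the other 9. Of the 3 acinar genes tested in pancreas HET against WT, 2 were higher and 1 was lower. The 7 hepatocyte markers were all found in every liver. The part of these differences in the values below was not tested, and the pancreas comparisons are also stated without HET 11 and HET 16.

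Ribosomal protein genes took 3.51% to 5.56% of the counts in the livers and in 2 pancreata, and 0.208% to 0.703% in the other 9 pancreata. Their share of counts in pancreas was 0.496%, 0.614% and 0.581% in the HOM libraries. In HET pancreas it was 5.12% in HET 11 and 5.56% in HET 16, and 0.648%, 0.659% and 0.703% in HET 9, HET 10 and HET 15. In WT pancreas it was 0.687%, 0.208% and 0.354% in WT 11, WT 12 and WT 16. The HOM range and the range of HET 9, HET 10 and HET 15 both lay within or close to the WT range, which was the widest of the 3. Wilson 95% intervals, which cover counting error only, ran from 0.175% to 0.247% in WT 12 and from 5.50% to 5.61% in HET 16. In bulk tissue, fewer cells rich in these mRNAs and less of these mRNAs per cell cannot be told apart. The part of the library differences described above, such as the share of protein-coding genes, was not tested.

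In liver the share was higher in each of the 5 HET libraries than in either WT library. It was 4.79%, 4.33%, 4.05%, 5.30% and 4.41% in HET 1 to HET 5 (mean 4.58 ± 0.482%, SD, n = 5), and 3.51% and 3.72% in WT 1 and WT 2 (mean 3.62 ± 0.153%, SD, n = 2). The intervals of single libraries, such as 3.99% to 4.11% in HET 3 and 3.66% to 3.79% in WT 2, did not meet. The 7 hepatocyte markers lay in the opposite order, with a summed level of 83075 to 95394 CPM in HET livers and 96492 to 112557 CPM in WT livers. Their part in the difference was not tested.

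**Figure D1:**
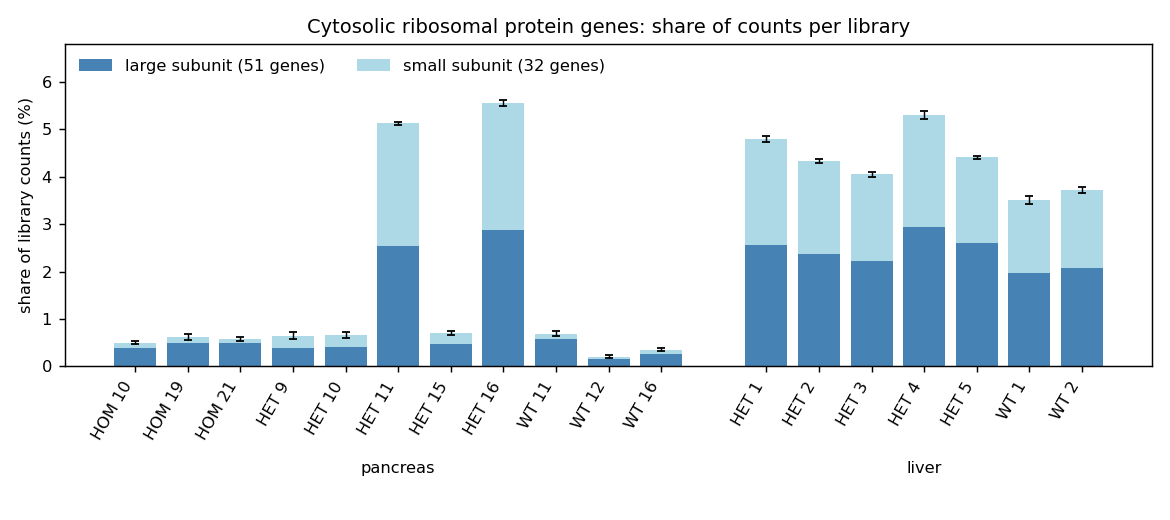
Share of each library's counts taken by ribosomal protein genes, in percent, with pancreas libraries on the left and liver libraries on the right. Dark bars are the 51 genes of the large subunit, light bars stacked on them the 32 genes of the small subunit, and error bars are Wilson 95% intervals of the whole share; HET 11 and HET 16 stand at 5.12% and 5.56% among pancreata at 0.208% to 0.703%.

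Large-subunit genes took more counts than small-subunit genes in 17 of the 18 libraries, the exception being HET 11. In liver the balance was steady, at 1.15, 1.22, 1.21, 1.24 and 1.44 large-subunit counts per small-subunit count in HET 1 to HET 5 (mean 1.25 ± 0.113, SD, n = 5) and 1.29 and 1.26 in WT 1 and WT 2 (mean 1.27 ± 0.0227, SD, n = 2). The WT values lay inside the HET range. The median of the genes' mean levels in liver was 439 CPM over the 51 genes of the large subunit and 497 CPM over the 32 of the small subunit. The part of the number of genes in the ratio was not tested.

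In pancreas the ratio was 3.27, 3.78 and 6.19 in the HOM libraries. It was 0.988 in HET 11 and 1.08 in HET 16, and 1.57, 1.54 and 2.10 in HET 9, HET 10 and HET 15. The WT libraries had 5.13, 3.89 and 3.17 in WT 11, WT 12 and WT 16. All 5 HET values thus lay below all HOM and all WT values, which overlapped each other. Rpsa, which sits at the mRNA exit side of the small subunit, supplied 163 of the 203 small-subunit counts of HET 10. Without Rpsa, a calculation added after the data were seen, the ratio of HET 10 was 7.80, above every HOM and WT library, while HET 9, HET 11, HET 15 and HET 16 had 2.33, 1.52, 2.10 and 1.57. The HOM libraries then had 3.75, 5.23 and 6.31, and the WT libraries 6.23, 3.89 and 3.17. The place of HET 10 below all HOM and WT libraries therefore rested on Rpsa. HET 9, HET 11, HET 15 and HET 16 stayed below all of them without it. The sums are small: WT 12 had 105 large-subunit and 27 small-subunit counts, and HOM 19 had 246 and 65.

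Nearly the whole family was found in liver, while 9 of the 11 pancreata held 16 to 40 of the 83 genes. In pancreas 35, 24 and 40 genes had at least 1 count in HOM 10, HOM 19 and HOM 21. In HET pancreas 70 were found in HET 11, 67 in HET 16, and 29, 33 and 35 in HET 9, HET 10 and HET 15. In WT pancreas 24, 16 and 36 were found in WT 11, WT 12 and WT 16. In liver the number was 81, 80, 79, 78 and 79 in HET 1 to HET 5, and 77 and 78 in WT 1 and WT 2. Among the pancreata the contrast was also seen at equal depth. At the 49502 counts of the smallest pancreas library, 59.4 genes would be expected in HET 11 and 54.6 in HET 16, against 14.7 to 32.8 in the other 9. At the 155201 counts of the smallest liver, 75.4 to 78.3 would be expected in every liver. Livers and pancreata were not set to a common depth.

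**Figure D2:**
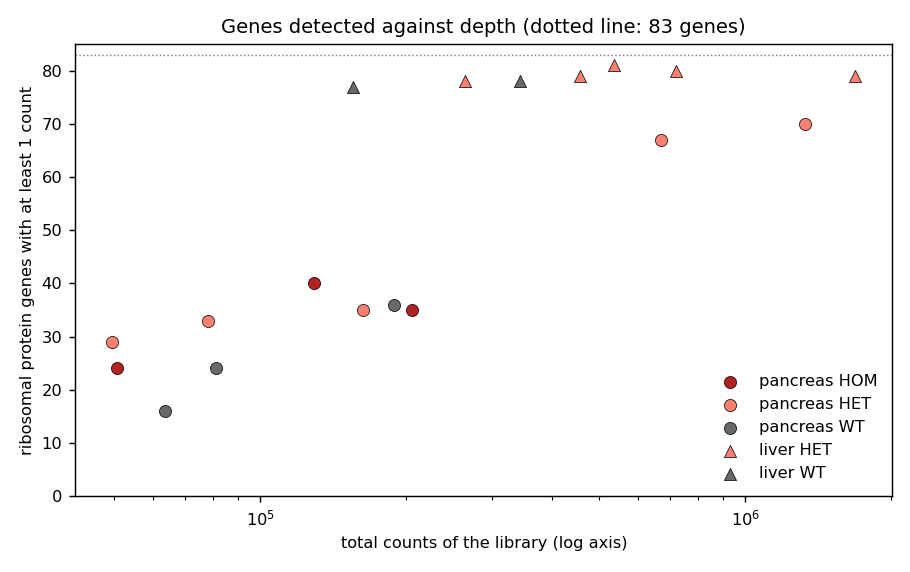
Number of ribosomal protein genes with at least 1 count (vertical axis) against the library's total counts (horizontal axis, log scale); circles are pancreata and triangles livers, coloured by genotype, and the dotted line marks all 83 genes. Livers of 155201 and 342609 counts hold 77 and 78 genes, while the 9 shallow pancreata hold 16 to 40.

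Gene by gene, 76 members were found in every liver library, 45 of the large and 31 of the small subunit, and 65 had at least 10 counts in each. Rpl10l, a retrocopy of Rpl10 known from testis, had 0 counts in all 7 livers. Rpl39l, also known from testis, and Rpl3l, known from striated muscle, had 1 count each, both in HET 1. In pancreas only Rpl12, a protein of the stalk base near which elongation factors bind, had counts in all 11 libraries. Rpl7a, Rpl10l, Rpl39l, Rpl3l and Rpl6l had 0 counts in all 11. Another 4 members were found in a single pancreas: Rps7 with 42 counts in HET 15, Rps23 with 3 in HOM 21, Rpl5 with 2 in WT 16 and Rpl15 with 1 in HET 9. Rps7, by contrast, had 251 to 661 CPM in every liver.

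The tissue-restricted relatives stayed at or near 0 beside their general forms. Rpl10 (chrX:74270812-74273135), which joins the large subunit late in its maturation, had 231, 268, 182, 265 and 266 CPM in the HET livers and 258 and 216 CPM in the WT livers, against 0 for Rpl10l. Rpl3, which lies close to the peptidyl transferase centre, averaged 149 ± 82.5 CPM in HET livers (SD, n = 5) and 114 ± 29.6 CPM in WT livers (SD, n = 2), while Rpl3l had its single count. Rps27 averaged 445 ± 354 CPM in HET livers (SD, n = 5) and 314 ± 11.1 CPM in WT livers (SD, n = 2), and its relative Rps27l, known as a target of p53, averaged 328 ± 46.3 CPM in HET livers (SD, n = 5) and 236 ± 33.3 CPM in WT livers (SD, n = 2). Rps27 and Rps27l were thus both well expressed in liver, but Rps27l had 39 counts in all pancreata together, 17 in HET 11 and 22 in HET 16. Rpl36al, a relative of Rpl36a whose symbol the rule leaves out, averaged 384 ± 78.6 CPM in HET livers (SD, n = 5) and 349 ± 89.3 CPM in WT livers (SD, n = 2). Rpl22l1, the relative of Rpl22, was barely counted in liver, with 8 counts in all HET libraries and 2 in all WT libraries.

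The 4 X-linked members fell into a well-counted and a barely counted pair. Rpl36a (chrX:134585654-134588062) averaged 167 ± 54.7 CPM in HET livers (SD, n = 5) and 111 ± 7.71 CPM in WT livers (SD, n = 2), and Rpl10 is given above. Rpl39 (chrX:37082520-37085402), which lines the exit tunnel, reached at most 11.3 CPM in a HET liver and 2.92 CPM in a WT liver. Rps4x (chrX:102184941-102189394) had 20.5 CPM in HET 1, at most 2.19 CPM in the other 4 HET livers, and 12.9 and 0 CPM in WT 1 and WT 2. The retrocopy Rps4l held more counts than Rps4x in every liver but is annotated as a pseudogene on chromosome 6, averaging 57.6 ± 19.3 CPM in HET livers (SD, n = 5) and 69.9 ± 16.8 CPM in WT livers (SD, n = 2). Among the members found in every liver the lowest mean levels were 6.38 CPM for Rps15a, 8.86 CPM for Rpl24 and 17.2 CPM for Rpl15. Processed copies named as such held 6 counts for Rps15a and 44 for Rpl15 in liver, and Rpl24 has none named.

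The most counted member in liver was Rplp1, an acidic protein of the stalk that recruits elongation factors. It had 2295, 2390, 2727, 3692 and 2461 CPM in HET 1 to HET 5, and 2242 and 1944 CPM in WT 1 and WT 2. It led in 6 of 7 livers, and its lowest HET value lay just above its highest WT value. Rpsa followed with 2040, 2119, 2486, 2781 and 1045 CPM in HET 1 to HET 5, and 1463 and 2090 CPM in WT 1 and WT 2, so that HET 5 was below both WT livers. Rpl8, a protein of the peptidyl transferase region, averaged 1507 ± 291 CPM over the 7 livers (SD), ahead of Rpl36 and Rpl11 at 1160 ± 344 and 1086 ± 288 CPM. In the small subunit Rps18 averaged 1581 ± 309 CPM, Rps15, whose tail reaches the decoding site, 1551 ± 404 CPM, Rps14 1427 ± 589 CPM and Rps2, at the mRNA entry, 1126 ± 338 CPM. Among Rpl8, Rps18, Rps15 and Rps14 the order did not exceed the spread between livers.

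Members differed in how constant they were between livers. Among members above 100 CPM, Rpl29 was the steadiest, with an SD of 0.15 on the log2(CPM + 1) scale over the 7 livers. Rps25 was the least steady, with an SD of 1.27: it had 246, 172, 43.8, 34.0 and 20.8 CPM in HET 1 to HET 5, and 103 and 87.6 CPM in WT 1 and WT 2. Rpl5, which binds the smallest ribosomal RNA together with Rpl11, followed at 1.02, and Rps27 at 0.94. Rps27 had 972 and 645 CPM in HET 1 and HET 2 and 158 to 263 CPM in HET 3 to HET 5, with the 2 WT livers between them at 322 and 306 CPM. Rps25 and Rps27 thus split the HET livers the same way, with HET 1 and HET 2 high, and the WT livers stood between. These genes were picked out after their values were seen.

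**Figure D3:**
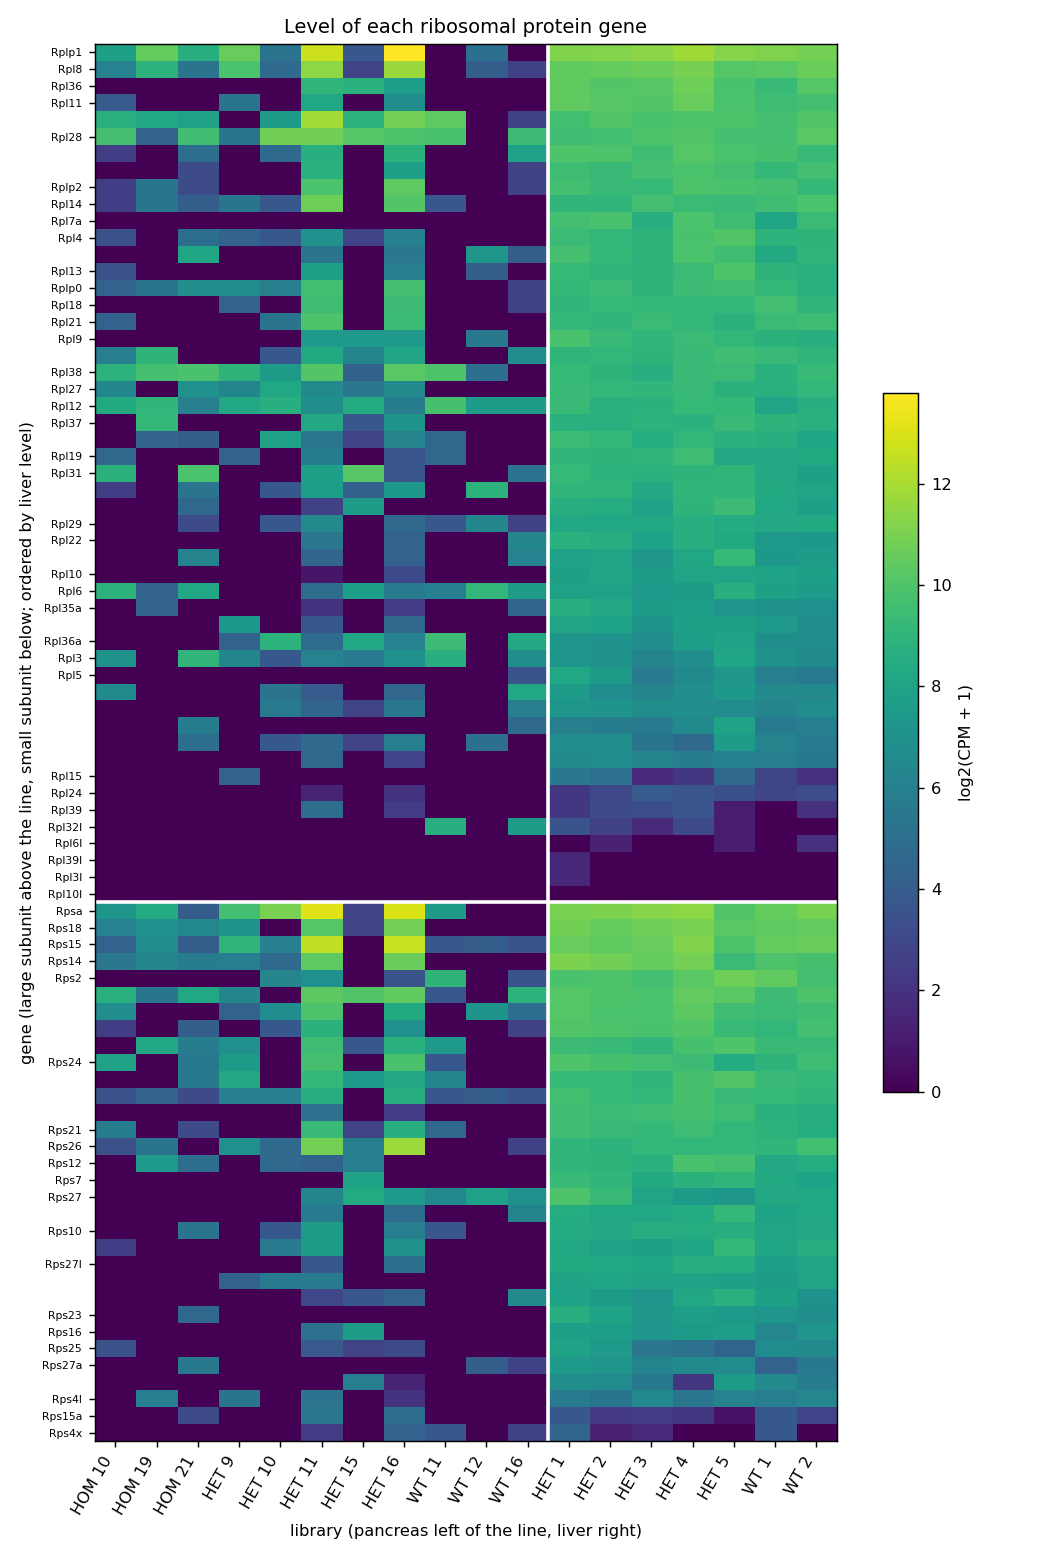
Level of each of the 83 genes in each library, as log2(CPM + 1) in colour (dark is 0, yellow the highest), with large-subunit genes above the white horizontal line and small-subunit genes below, each ordered by their liver level, and pancreas left of the vertical line; a selection of genes is labelled. Liver columns are nearly uniform; among pancreata, HET 11 and HET 16 are filled with 70 and 67 genes, while Rpl7a is empty in all 11.

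In pancreas, 95.1% of all counts of the family lay in HET 11 and HET 16, which held 66.5% of all pancreas counts. For 43 members over 90% of the pancreas counts were in those libraries, and for 14 under 50%. Rplp1 had 6873 CPM in HET 11 and 14164 CPM in HET 16, but 224, 1461 and 412 CPM in the HOM libraries, 1555, 38.4 and 12.3 CPM in HET 9, HET 10 and HET 15, and 0, 31.5 and 0 CPM in WT 11, WT 12 and WT 16. Rpsa had 8977 CPM in HET 11 and 8375 CPM in HET 16, but 146, 355 and 15.5 CPM in the HOM libraries, 828, 2087 and 6.15 CPM in HET 9, HET 10 and HET 15, and 197, 0 and 0 CPM in WT 11, WT 12 and WT 16. Rps15 had 19.5, 98.7 and 15.5 CPM in the HOM libraries, 5671 and 6406 CPM in HET 11 and HET 16, 525, 64.0 and 0 CPM in HET 9, HET 10 and HET 15, and 12.3, 15.8 and 10.6 CPM in the WT libraries. Rplp1 and Rpsa, the leading genes of liver, also led in HET 11 and HET 16 and were at or near 0 in most WT pancreata.

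A few members did not follow the family's distribution over the pancreata. Rpl38, a small protein of the large subunit, had 473, 829 and 901 CPM in the HOM libraries, 505, 179 and 18.4 CPM in HET 9, HET 10 and HET 15, 1080 and 1208 CPM in HET 11 and HET 16, and 998, 31.5 and 0 CPM in the WT libraries, so that the HOM libraries lay within the range of the others. Rpl12 (chr2:32961559-32965345) had 327, 533 and 62.1 CPM in the HOM libraries, 303, 410 and 357 CPM in HET 9, HET 10 and HET 15, 115 and 55.2 CPM in HET 11 and HET 16, and 874, 189 and 191 CPM in the WT libraries, so HET 11 and HET 16 were among the lowest. Rpl28 had 853, 19.7 and 753 CPM in the HOM libraries, 40.4, 1844, 1875, 1150 and 995 CPM in HET 9, HET 10, HET 11, HET 15 and HET 16, and 899, 0 and 690 CPM in the WT libraries. Rpl6 had 483, 19.7 and 295 CPM in the HOM libraries, 0, 0, 28.6, 221 and 47.7 CPM in the HET libraries in the same order, and 61.6, 567 and 196 CPM in the WT libraries. For Rpl28 and Rpl6 the 3 genotypes overlapped widely, with low and high libraries in each.

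The rank order of members was shared among livers and with HET 11 and HET 16, and much less with the other pancreata. Over the 83 genes, Spearman's rho with the summed livers was 0.81 for HET 11 and 0.73 for HET 16, 0.42 to 0.51 for the HOM pancreata, 0.23 to 0.45 for HET 9, HET 10 and HET 15, 0.06 to 0.19 for the WT pancreata, and 0.89 to 0.98 for the livers, each of which is part of that sum. These are descriptions across genes, and depth is low where rho is low. By mean CPM within the family Rplp1 and Rpsa ranked first and second in both tissues. The pancreas mean pools libraries of unlike kinds: HET 11 and HET 16 held 98.6% of the pancreas counts of Rplp1 and 98.5% of those of Rpsa, but 28.7% for Rpl36a and 21.7% for Rpl6, so the pancreas ranks mix both kinds of library. The members with the largest change of rank toward pancreas were Rpl36a (19 in pancreas, 62 in liver), the pseudogene Rpl32l (38 and 79), Rpl3 (23 and 63) and Rpl6 (18 and 56). Among those with the largest change toward liver were Rpl7a (79 and 22), Rpl11 (42 and 9) and Rps2 (35 and 8).

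In the 9 pancreata low in ribosomal protein counts, processed copies held more counts than the genes. The table lists 312 rows named as copies (a member's symbol followed by -ps and a number) of 57 members. Counts on these copies per 100 counts on the members were 250, 124 and 223 in the HOM pancreata. They were 102, 127 and 187 in HET 9, HET 10 and HET 15 but 1.77 in HET 11 and 2.39 in HET 16. In the WT pancreata they were 165, 461 and 401 in WT 11, WT 12 and WT 16. Livers had 5.54, 5.54, 6.96, 5.22 and 3.32 in HET 1 to HET 5 and 5.77 and 5.40 in WT 1 and WT 2. Beside this, processed pseudogenes of all genes took 0.334% and 0.914% of all counts in HET 11 and HET 16, 7.84% to 12.0% in the other 9 pancreata and 0.541% to 0.936% in the livers. As a share of the library the copies of this family held 0.0908% and 0.133% in HET 11 and HET 16, 0.663% to 1.42% in the other 9 pancreata and 0.146% to 0.282% in liver. The treatment of reads that match several places is not given here, so counts of members with near-identical copies are uncertain.

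**Figure D4:**
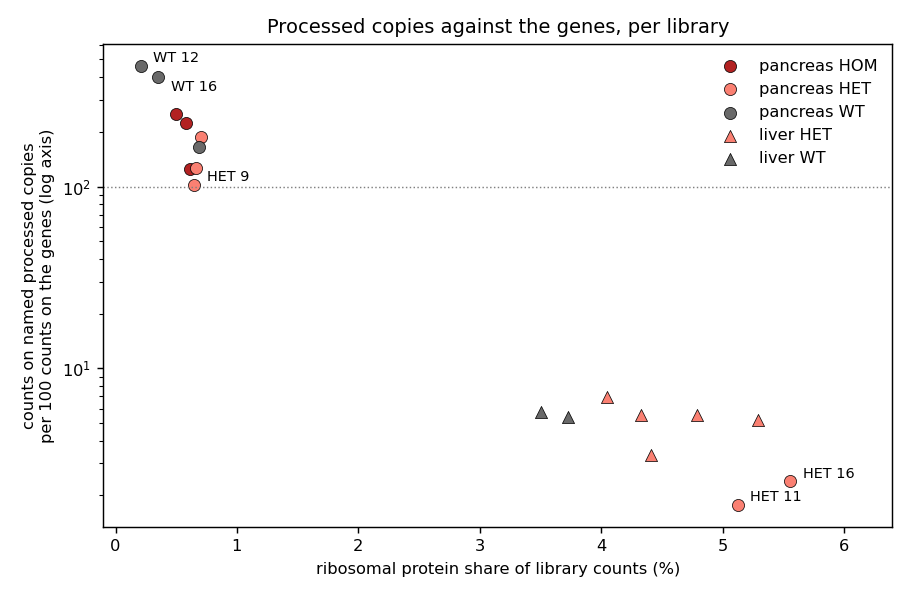
Counts on named processed copies per 100 counts on the ribosomal protein genes (vertical axis, log scale) against the share of library counts on the genes in percent (horizontal axis), with circles for pancreata, triangles for livers and colours for genotype. The 9 pancreata with shares up to 0.703% lie above the dotted line at 100; the livers, HET 11 and HET 16 lie between 1.77 and 6.96.

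For 18 members the copies together held more pancreas counts than the gene, and for none in liver. Among those where the copies exceeded the gene by the most counts were Rps10, a protein of the small subunit's head (1434 on 4 copies, 285 on the gene), Rpl19, which contributes to a bridge between the subunits (844 on 11 copies, 89 on the gene), Rpl31, near the tunnel exit (1423 on 24 copies, 711 on the gene) and Rps2 (706 on 12 copies, 212 on the gene). Rps10-ps3 had counts in all 11 pancreata: 130, 54 and 48 in the HOM libraries, 17, 73, 7, 188 and 24 in HET 9, HET 10, HET 11, HET 15 and HET 16, and 20, 38 and 170 in the WT libraries. It had 0 counts in all 7 livers, where Rps10 had 1487. Its lowest pancreas count was thus in HET 11, the deepest library.

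How well a copy can be told from its gene depends on the bases in which they differ. Of the copies with a transcript in GENCODE, 204 aligned over at least 90% of the gene's coding sequence, with a median identity of 97.2%, and 12 were identical to it. The stretch from base 164 to base 253 of the coding sequence of Rps10 (chr17:27630418-27636669, minus strand) is shown beside the same stretch of its copies Rps10-ps3 (chr4:3978251-3978750, minus strand), Rps10-ps2 (chr16:20822145-20822640, minus strand) and Rps10-ps1 (chr3:95622278-95622772, plus strand), all in mm10 and written 5′ to 3′ on the gene's strand. Capitals in a copy mark bases that differ from the gene, and capitals in the gene mark positions where any copy shown differs.
Rps10: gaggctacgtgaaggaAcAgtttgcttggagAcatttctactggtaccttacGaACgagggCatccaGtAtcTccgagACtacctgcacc
Rps10-ps3: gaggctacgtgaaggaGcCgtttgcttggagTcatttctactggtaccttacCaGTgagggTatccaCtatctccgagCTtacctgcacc
Rps10-ps2: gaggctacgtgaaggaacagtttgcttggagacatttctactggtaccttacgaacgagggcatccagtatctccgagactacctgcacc
Rps10-ps1: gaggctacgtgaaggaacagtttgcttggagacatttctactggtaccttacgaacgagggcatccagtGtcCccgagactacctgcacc
Rps10-ps3 differed from the gene at 10 of these 90 bases and had 89.0% identity over the 453 coding bases aligned, while Rps10-ps2 had 99.1% and Rps10-ps1 98.7% over 456. The copy with the most pancreas counts, 769, was therefore the one of these most unlike the gene, while Rps10-ps2 had 451 and Rps10-ps1 212. In liver Rps10-ps1 led with 553, Rps10-ps2 had 79 and Rps10-ps3 had 0. MARS-seq reads lie near transcript ends, so these coding stretches show how alike the copies are and not where the reads fell.

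A short pyrimidine motif was looked for around the annotated starts of the genes, near where the tract described above begins. It was searched as CTTTC or CTTTT on the gene's strand within 30 bases either side of the RefSeq start, and 27 of the 61 members with an entry held it (44.3%), against 4191 of 27025 genes (15.5%). On the opposite strand the shares were 14.8% of members and 15.7% of all genes. The motif is a description and not a tested site. The search also takes matches that end before the RefSeq start, as in Rpl4 and Rpl13 below. By that start such matches are not part of the mRNA. Among members with it, 5 with high liver levels are shown from 25 bases before to 15 bases after the start, with RefSeq sequence of build GRCm38.p6 and the motif in capitals, overlapping matches included.
Rpl28: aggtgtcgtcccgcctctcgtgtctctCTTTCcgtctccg
Rplp2: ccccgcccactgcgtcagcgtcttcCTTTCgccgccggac
Rpl7a: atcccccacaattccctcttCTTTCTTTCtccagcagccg
Rpl4: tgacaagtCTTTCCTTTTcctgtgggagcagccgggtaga
Rpl13: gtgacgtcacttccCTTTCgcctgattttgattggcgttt
The windows are chr7:4792940-4792979 for Rpl28, chr7:141447626-141447665 for Rplp2, chr2:26910782-26910821 for Rpl7a, chr9:64173362-64173401 for Rpl4 and chr8:123102325-123102364 for Rpl13, all on the plus strand. Their mean liver levels were 928, 772, 680, 670 and 607 CPM. Rpl7a is among them although it had 0 counts in every pancreas, and its 14 named copies held 70 counts there.

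The liver comparison asked whether ribosomal protein genes differ when a copy of Otub2 is lost. Of the 83 members, 74 passed the filter on low counts (44 large, 30 small), and edgeR's quasi-likelihood test called 0 of them at an adjusted p under 0.05, as it called 0% of the 4803 genes tested. DESeq2 called 0 members too, with 0.333% of genes called. At an unadjusted p under 0.05, 23 members differed, all of them higher in HET livers, where 10.3% of all genes differed, 5.39% upward and 4.96% downward. The log2 fold change was above 0 for 68 of 74 members, against 52.1% of all genes. Its median was 0.54 over the members, 0.60 in the large and 0.50 in the small subunit, against 0.03 over all genes. In 15 members every HET liver was above every WT liver, where 6.95% of all genes were, and in 0 members every HET liver was below, where 11.1% of all genes were. No test was made over the members as a set, and leaving out any 1 liver moved the median between 0.51 and 0.63 and left 0 called.

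Rps27a and Rpl22 had the smallest p-values among the members. Rps27a encodes ubiquitin fused to a small-subunit protein. It had 171, 146, 74.5, 94.5 and 97.9 CPM in HET 1 to HET 5, and 19.3 and 46.7 CPM in WT 1 and WT 2, the WT values resting on 3 and 16 counts. No WT liver reached the lowest HET liver, and the log2 fold change was 1.81 ± 0.49 (SE; edgeR adjusted p = 0.242). Rpl22, a large-subunit protein that also binds other structured RNAs, had 452, 390, 259, 416 and 333 CPM in HET 1 to HET 5, and 174 and 161 CPM in WT 1 and WT 2. The groups did not overlap, and the log2 fold change was 1.23 ± 0.32 (SE; edgeR adjusted p = 0.242). Rpl31 averaged 506 ± 55.5 CPM in HET livers (SD, n = 5) and 272 ± 62.3 CPM in WT livers (SD, n = 2), a log2 fold change of 0.99 ± 0.29 (SE; edgeR adjusted p = 0.247). None of these 3 passed the threshold. With no filter on low counts beyond 1 count, which raises the genes tested to 18552, 3 members were called, among them Rps27a (edgeR adjusted p = 0.0349) and Rpl22 (edgeR adjusted p = 0.0469), and 57 genes in all.

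Other members with every HET liver above every WT liver were Rpl9, Rpl11, Rpl12, Rpl35a, Rplp1, Rps7, Rps12, Rps16, Rps21, Rps23 and Rps27l. They include Rpl11, which with Rpl5 binds the p53 regulator MDM2, at 1214 ± 227 CPM in HET livers (SD, n = 5) and 765 ± 61.4 CPM in WT livers (SD, n = 2), a log2 fold change of 0.76 ± 0.29 (SE; edgeR adjusted p = 0.393). The 6 members with a log2 fold change below 0 ranged from -0.30 to -0.13: Rpl14, Rpl21, Rps4l, Rps26, Rpl18 and Rpl28. Rpl14 was the lowest, at 544, 535, 807, 669 and 651 CPM in HET 1 to HET 5, and 747 and 937 CPM in WT 1 and WT 2, a log2 fold change of -0.30 ± 0.28 (SE; edgeR adjusted p = 0.739). HET 3 lay above WT 1, so its groups overlapped. Rpl21 averaged 563 ± 77.0 CPM in HET livers (SD, n = 5) and 697 ± 38.0 CPM in WT livers (SD, n = 2), a log2 fold change of -0.21 ± 0.28 (SE; edgeR adjusted p = 0.836). Of the X-linked members tested, Rpl36a had 0.68 ± 0.37 and Rpl10 0.13 ± 0.30 (log2 fold change ± SE). WT livers were the shallowest and the third shallowest of the 7, with 155201 and 342609 counts.

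**Figure D5:**
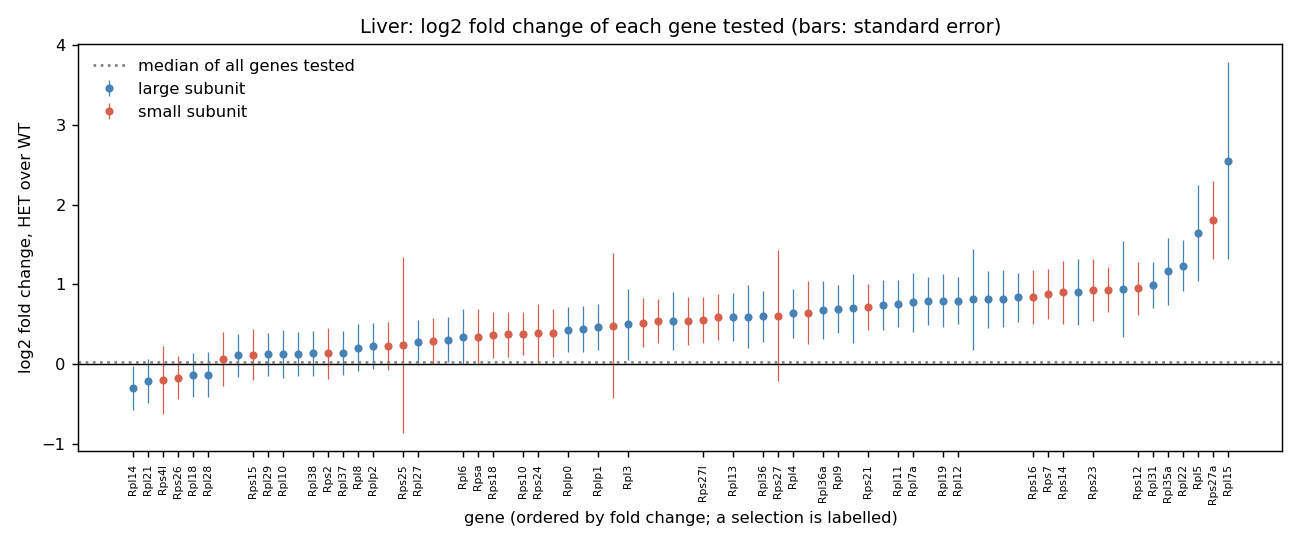
Log2 fold change of each of the 74 genes tested in liver, HET over WT, ordered from lowest to highest (vertical axis), with bars for the standard error, blue for the large and red for the small subunit, and a dotted line at 0.03, the median of all genes tested; a selection of genes is labelled. Genes of both subunits are spread along the order, 68 of 74 lie above 0, and no gene was called.

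The pancreas comparisons asked the same with 1 or 0 copies of Otub2, but 29 of 83 members (18 large, 11 small) passed the filter, and many did so through HET 11 and HET 16, so counts over these members describe them only. The coefficient of variation between libraries in the fit, apart from counting error, was 166% in pancreas and 35.4% in liver. At that spread, 0 calls in pancreas do not show that levels were alike. In HET against WT, edgeR called 0 members, as it called 0% of the 3719 genes. At an unadjusted p under 0.05, 16 members were higher, where 13.9% of all genes differed, 9.2% upward and 4.71% downward. DESeq2 called 8 members, among them Rpl27, Rpl36, Rpl37, Rplp1, Rps14, Rps24 and Rpsa, where 5.35% of genes were called. The log2 fold change was above 0 in 26 of 29 members, against 46.1% of all genes. Its median was 5.49, or 5.30 with the 5 genes at 0 in WT set at the limit of 3 counts over the group, against -0.20 over all genes. Without HET 11 and HET 16, 11 members passed the filter, 0 were called and their median was -0.16, against -0.04 over all genes tested. Without HET 16 alone it was 2.44.

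Rpl36 came closest to the threshold in HET against WT. It had 0 counts in all 3 HOM and all 3 WT pancreata, and 0, 0, 713, 72 and 134 in HET 9, HET 10, HET 11, HET 15 and HET 16 (edgeR adjusted p = 0.0518). Libraries of 3 HET pancreata thus held all of its counts and the other 2 had none. Rpl37 had 0, 29 and 0 counts in HOM 10, HOM 19 and HOM 21, 418, 2 and 94 in HET 11, HET 15 and HET 16, and 0 in HET 9, HET 10 and all WT pancreata (edgeR adjusted p = 0.0734). Rps14 had 9, 4 and 7 counts in the HOM pancreata, 3, 2, 1745, 0 and 1072 in the HET pancreata, and 0 in the WT pancreata (edgeR adjusted p = 0.0859). Rplp0, the stem of the stalk, had 4, 2 and 14 counts in the HOM pancreata, 5, 5, 1024, 0 and 572 in the HET pancreata, and 0, 0 and 1 in the WT pancreata (edgeR adjusted p = 0.0823). In Rpl37, Rps14 and Rplp0 the large HET values were those of HET 11 and HET 16. In Rpl36 the level of HET 15 was also large, with 537 CPM in HET 11, 443 CPM in HET 15 and 199.8 CPM in HET 16.

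For 2 members, Rpl27 and Rps26, every HET pancreas was above every WT pancreas, where this held for 0.753% of all genes tested. In 0 members every HET pancreas was below, which 3.58% of genes were. Rpl27 had 16, 0 and 16 counts in the HOM pancreata, 4, 23, 122, 7 and 60 in the HET pancreata, and 0 in the WT pancreata (edgeR adjusted p = 0.103). Rps26, at the mRNA exit, had 9.75, 39.5 and 0 CPM in the HOM pancreata. It had 121, 25.6, 1940, 61.5 and 3537 CPM in the HET pancreata. In the WT pancreata it had 0, 0 and 5.31 CPM, the last resting on 1 count in WT 16. Its log2 fold change was 11.08 ± 4.38 (SE; edgeR adjusted p = 0.138). That value was taken after TMM scaling and not from these CPM. TMM factors were 0.175 (HET 11) and 0.268 (HET 16), while all remaining pancreata lay between 1.29 (HOM 10) and 1.61 (WT 12). The members with a log2 fold change below 0 were Rpl6 at -0.89 ± 1.85, Rpl36a at -0.60 ± 1.88 and Rpl12 at -0.02 ± 1.73 (SE; edgeR adjusted p = 0.993, 1 and 1), and for each the direction turned in other settings. HET 9, HET 10 and HET 15 lay above WT in Rpl27 and Rps26 on 4 to 23 counts of Rpl27 and 2 to 10 counts of Rps26.

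In HOM against WT, edgeR called 0 members, as it called 0% of genes, and DESeq2 called Rpl37 alone, where 0.323% of genes were called. At an unadjusted p under 0.05, 5 members differed, where 4.97% of genes did. Rpl37, Rpl31 and Rpl27 were higher, where 4.06% of genes were, and Rpl36a and Rps27 lower, where 0.914% of genes were. The counts of Rpl37 in HOM were the 29 of HOM 19. Rpl31 had 458, 0 and 932 CPM in the HOM pancreata, and 0, 0 and 37.1 CPM in WT 11, WT 12 and WT 16, a log2 fold change of 6.50 ± 2.53 (SE; edgeR adjusted p = 0.957). Rpl36a had 0 counts in all HOM pancreata, and 56, 0 and 61 in the WT pancreata (edgeR adjusted p = 0.957). Rps27 had 0 counts in all HOM pancreata, and 7, 15 and 23 in the WT pancreata (edgeR adjusted p = 0.957), so every HOM value was below every WT value. It was the single member with that order, which 2.9% of genes had, and in 5 members (Rpl8, Rplp0, Rplp1, Rps14 and Rps18) every HOM value was above every WT value, which 8.31% of genes had. The log2 fold change was above 0 in 19 of 29 members, against 53.8% of all genes. Its median was 1.14 over the 29, or 1.18 with genes at 0 in a group set at their limit and Rpl36, at 0 in both groups, left out, against 0.19 over all genes. Without HET 11 and HET 16, 11 members were tested, 0 were called and the median was 0.52. Without WT 11 the median was 3.22. Without HET 11, which enters through the shared spread, the scaling and the sex covariate, it was 0.39.

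In HOM against HET, edgeR called 0 members, as it called 0% of genes, and 7 members differed at an unadjusted p under 0.05, all lower in HOM, where 11% of genes differed, 6% upward and 5.03% downward. DESeq2 called 4 (Rpl36, Rplp1, Rps14 and Rpsa), where 1.67% of genes were called. Rpl9 had 0 counts in the HOM pancreata, and 0, 0, 224, 28 and 118 in the HET pancreata (edgeR adjusted p = 0.143). Rps27 had 0 counts in the HOM pancreata, and 0, 0, 106, 56 and 119 in the HET pancreata (edgeR adjusted p = 0.154). Rpl36a had 0 counts in the HOM pancreata, and 1, 37, 36, 49 and 46 in the HET pancreata (edgeR adjusted p = 0.163). It was the single member with every HOM value below every HET value, which 0.484% of genes had (in 0 members the order was opposite, as in 6.21% of genes), and its counts were spread over the HET libraries rather than held by HET 11 and HET 16. The order of Rpl36a rested on 1 count in HET 9, at 20.2 CPM. A count of 0 allows up to 59.2 CPM in HOM 19 and 23.3 CPM in HOM 21, so counting error could undo that order. The log2 fold change was above 0 in 2 of 29 members, against 58.9% of all genes, and its median was -4.61, against 0.35 over all genes. Without HET 11 and HET 16 it was 0.08, and without HET 16 alone 0.13. The 3 pancreas comparisons share their libraries, so their results are not independent.

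Genes that work with the ribosome showed 0 calls in all 4 comparisons by edgeR. In pancreas 3 ribosome-associated genes, 2 elongation factors, 9 initiation factors and 7 biogenesis genes were tested. DESeq2 called Eif3b, Eif3c, Serbp1 and Nhp2 in pancreas HET against WT, all higher (DESeq2 adjusted p = 0.00162, 0.0328, 0.0125 and 0.0301), where 5.35% of all genes were called. It also called Nhp2 as lower in HOM against HET (DESeq2 adjusted p = 0.0396), where 1.67% of all genes were called. Of the 7 ribosomal proteins that the symbol rule leaves out, 4 were tested in liver, with a median log2 fold change of 0.32 in HET against WT. Among them Rps3a1 averaged 382 ± 90.1 CPM in HET livers (SD, n = 5) and 303 ± 8.17 CPM in WT livers (SD, n = 2), and Fau, a fusion of a ubiquitin-like protein and a small-subunit protein, 655 ± 141 CPM in HET livers (SD, n = 5) and 705 ± 122 CPM in WT livers (SD, n = 2). The medians were 0.53 over 3 ribosome-associated genes, 0.04 over 6 elongation factors, 0.20 over 23 initiation factors and -0.03 over 21 ribosome biogenesis genes. Rack1, a scaffold protein on the small subunit, averaged 670 ± 93.5 CPM in HET livers (SD, n = 5) and 491 ± 34.3 CPM in WT livers (SD, n = 2), a log2 fold change of 0.53 ± 0.27 (SE; edgeR adjusted p = 0.518). Eif5, which triggers GTP hydrolysis at the start codon, averaged 55.1 ± 31.6 CPM in HET livers (SD, n = 5) and 10.8 ± 2.92 CPM in WT livers (SD, n = 2), the WT value resting on 5 counts (edgeR adjusted p = 0.247). Nop58, a core protein of box C/D snoRNPs, averaged 18.5 ± 5.76 CPM in HET livers (SD, n = 5) and 57.9 ± 8.96 CPM in WT livers (SD, n = 2), a log2 fold change of -1.62 ± 0.50 (SE; edgeR adjusted p = 0.261). The median of the ribosomal protein genes, 0.54, thus stood above those of elongation, initiation and biogenesis, a difference that was not tested.

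In the pancreata the same lists followed HET 11 and HET 16 to different degrees. The 7 ribosomal proteins outside the rule summed to 2020 and 2677 CPM in HET 11 and HET 16, against 0 to 263 CPM in the other 9 pancreata. The 32 initiation factors summed to 1900 and 3673 CPM, against 333 to 1018 CPM. The 10 elongation factors came to 2182 and 1903 CPM, against 667 to 1816 CPM. The 40 biogenesis genes found in the table summed to 1383 and 1891 CPM, within the 653 to 3040 CPM of the other 9. In HET against WT, 6 of 9 initiation factors tested had an unadjusted p under 0.05, all higher, where 13.9% of all genes differed and 9.2% were higher. Eif3b, a core subunit of initiation factor eIF3, was among them, with 1381 counts in HET and 0 in WT (edgeR adjusted p = 0.0569). All initiation factors together had 29, 75 and 104 counts in HET 9, HET 10 and HET 15, against 2521 and 2463 in HET 11 and HET 16. Most HET counts of Eif3b thus lay in HET 11 and HET 16. Of 7 biogenesis genes tested, 3 had an unadjusted p under 0.05 in edgeR: Nhp2, of the snoRNA-guided pseudouridylation complex, and Ubtf, an activator of ribosomal RNA transcription, had 867 and 788 counts in HET and 0 in WT (edgeR adjusted p = 0.0518 for each), while Fbl, the methyltransferase fibrillarin, had 3 counts in HET and 84 in WT (edgeR adjusted p = 0.177). All biogenesis genes together had 78, 69 and 194 counts in HET 9, HET 10 and HET 15, against 1834 and 1268 in HET 11 and HET 16. Most HET counts of Nhp2 and Ubtf thus also lay in HET 11 and HET 16.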

How the data were processed

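RNA of pancreas (11 libraries) and liver (7 libraries) was extracted with TRI reagent and made into bulk MARS-seq libraries, per the labels' protocols. Per the submitters' processing notes, cutadapt, STAR and the build mm10 were used; no versions, annotation, counting rule, strand setting or barcode collapsing is stated. The authors deposited 1 table per tissue of whole-number counts for 55291 gene symbols, which they call corrected, and what was corrected is not stated. Library totals were 49502 to 1326541 counts in pancreas and 155201 to 1686234 in liver, which limits low genes.

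Levels are CPM of the library total. Differences were tested on the deposited counts with edgeR 4.0.16 (R 4.3.3; filterByExpr by genotype, TMM scaling, robust quasi-likelihood test, Benjamini-Hochberg adjustment over all genes tested, threshold 0.05), over the 11 pancreata with sex as a covariate and over the 7 livers with genotype alone. A standard error is the size of the fold change divided by the root of F. DESeq2 1.42.0, other filters, scalings, designs and each library left out were alternatives. The scripts were tested on simulated data. Intervals of shares are Wilson 95% intervals and, like limits of 3 counts, cover counting error only. The labels number the replicates without saying whether each is another animal, so p-values measure the spread between these libraries.

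The genes and lists were chosen with earlier results of these data known. Genes were named by level (5 per subunit and tissue), by p-value (4 per direction and comparison), by X linkage, paralogy, detection, copies and change of rank; any other gene named was picked after its values were seen. Gene models came from GENCODE mouse release 21 and start windows from RefSeq. Protein sequences were not used here, and a few genes that the naming rule selects are not reported here.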

Additional observations from a re-analysis of the deposited data

Results flagged for a closer look

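In the HET pancreas group, 3 genes had a library far from the other 4, its gap to the nearest of them being over 0.71 of the group's range. Chance alone flags some groups of this size, and the cause was not tested. Rpl27 stood at 294.5 CPM in HET 10, where the next library, HET 11, had 92.0 CPM, a gap of 0.805 of the range. Rpl31 stood at 1180.8 CPM in HET 15, where the next, HET 11, had 219 CPM, a gap of 0.815 of the range. Rpl6 stood at 221.4 CPM in HET 15, where the next, HET 16, had 47.7 CPM, a gap of 0.784 of the range. These libraries are not the HET 11 and HET 16 that held most of the family's counts. The value of Rpl27 in HET 10 rests on 23 counts, that of Rpl31 in HET 15 on 192 and that of Rpl6 in HET 15 on 36.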

How the results depend on the processing

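Of the values for groups and lists under other settings, 206 kept their direction and their range, 35 moved and 3 reversed; of those for single genes, 419 were unchanged in call and direction, 18 became called and 25 reversed. The cause of a change was not tested unless the setting itself shows it. In liver, edgeR called 3 members without the low-count filter and the median became 0.68. Rpl18 was at 0.029 there, and between -0.42 and 0.29 with 1 library left out; Rps26 was between -0.32 and 0.12.

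In pancreas HET against WT, 8 members were called by DESeq2, 1 with total counts in place of TMM and 3 without the sex covariate (Rpl36, Rpl37 and Rplp0), and 0 to 2 with 1 library left out (Rpl36 and Rpl37 without HET 9, Rpl37 without HET 15). The median was 3.29 with total counts, -0.16 without HET 11 and HET 16, and 2.44 to 8.26 with 1 library left out. Leaving out 1 library gave -1.71 to 0.23 for Rpl6, -1.15 to 0.53 for Rpl36a and -0.57 to 1.27 for Rpl12; Rpl12 was 0.25 without the filter, 0.054 with only the 2 groups compared and 0.057 without sex. In HOM against WT, DESeq2 called 1 member, the median was 0.41 with only the 2 groups compared and 0.39 to 3.22 with 1 library left out, Rpl9 ran from -4.34 to 0.59 and Rpl32 from -5.12 to 4.92. In HOM against HET, DESeq2 called 4, the median was -2.35 with total counts, 0.079 without HET 11 and HET 16 and -5.81 to 0.13 with 1 library left out. Rpl6 ran from -0.11 to 1.30 and Rpl31 from -0.39 to 3.83, with -0.25 without sex.

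With the replicate number as a block, edgeR called 6 members in liver, among them Rpl22 (edgeR adjusted p = 0.0193) and Rps27a (edgeR adjusted p = 0.0189). In pancreas HET against WT the block without sex gave 10 calls, a median of 7.59, 0.99 for Rpl6 and 0.24 for Rpl12. A blocked contrast draws only on numbers that both groups hold. In pancreas these were HET 11 and HET 16 against WT 11 and WT 16. In liver they were HET 1 and HET 2 against WT 1 and WT 2. Such fits left little to estimate the spread, and their calls were not taken as results. Deviations of same-numbered libraries correlated at -0.025 and -0.026 in liver, at 0.00085 and -0.038 for HET and WT pancreata and at 0.067 for HET and HOM. With fewer than 3 pairs each, these values cannot show whether same-numbered libraries belong together. In liver the WT deviations from their mean mirror each other, so its values are not independent. For HOM against WT and HOM against HET no blocked fit was made, because HOM and WT pancreata share no number and HOM and HET share 1.

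Without the 10 most counted genes the liver share was 5.71% in HET and 4.62% in WT. With named copies it was 1.66% in HOM pancreas, 1.59% in WT pancreas and 3.82% in WT liver. The large to small ratio without Rpsa was 3.06 in HET pancreas, 1.39 in HET liver and 1.43 in WT liver, and with members outside the rule 1.22 in WT liver. Genes expected at the smallest depth were 76.7 in HET and 76.4 in WT livers, and genes detected with outside members 85.4 in HET and 83.5 in WT livers. Depth limits the shallow pancreata: in HET 9, with 49502 counts, a count of 0 allows a level of up to 60.6 CPM.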
